A study of Mus musculus with 2 samples.

Results

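Accessible regions far from promoters are not spread evenly over the genes of the mouse liver. The genes described here were those with at least 12 distal accessible regions, selected on the peak calls and distances of the deposited table: a region counted as distal when its centre lay over 1000 and up to 100000 bp from the closest transcription start site (TSS), and it was assigned to that gene. In all, 170 genes met the rule, 0.801% of the 21213 genes that were closest to any distal region, and they held 2384 of the 51568 distal regions (4.62%). The values come from ATAC-seq (assay for transposase-accessible chromatin with sequencing), in which the Tn5 transposase cuts open chromatin so that read counts follow accessibility. There were 2 libraries. The control library came from livers of *Mettl3* flox/flox mice, in which *Mettl3* carries loxP sites and no Cre was given in the labels. The other came from livers of *Mettl3*-HKO mice (*Mettl3* flox/flox *Alb*-Cre+/-), which lack *Mettl3* in hepatocytes because the albumin promoter drives Cre there. All mice were of the C57BL/6 strain, ate normal chow and were 8 weeks old, and each library was pooled from 4 livers.

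METTL3 is the catalytic subunit of the complex that writes N6-methyladenosine on RNA. Distal accessible regions are for the most part candidate enhancers, stretches where transcription factors displace nucleosomes and from which a promoter can be activated over a distance. Genes that define a cell type, and genes that answer hormones or nutrients quickly, are known to sit among many such elements, and a dense group of them around a gene is often called an enhancer domain. The closest TSS is a convention of annotation: an enhancer may act on another gene.

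Each genotype had a single pooled library, so that no replicate error is known and nothing was tested. The log2 ratio of a region is *Mettl3*-HKO over *Mettl3* flox/flox, from counts plus 1 read over the library totals (52826209 reads for flox/flox and 58038309 for HKO), and its 95% interval is an exact Clopper-Pearson interval that covers counting error only. Reads in the accessible regions were 31.7% of the flox/flox total and 22.3% of the HKO total, and the 69549 regions together had a median log2 ratio of -0.38. Directions below are on the library totals. With that median subtracted, every value between -0.38 and 0 turns above 0, as the medians of 38 of the 170 genes did, so that such values have no direction that holds under both scalings. The main counts are given under both. The 3 regions closest to *Mettl3* do not check the knockout, because none is known to cover a deleted exon. The largest, at the TSS, had 566 reads in flox/flox and 392 in HKO, a log2 ratio of -0.66 (-0.86 to -0.48). As a check of the tissue, all 8 hepatocyte marker genes had a distal region, with a median of 6 per gene. So had 10 of 10 sinusoidal endothelial markers (median 3), 7 of 10 Kupffer cell markers, 7 of 10 cholangiocyte markers, 2 of 10 lymphocyte markers and 1 of 10 stellate cell markers. Counts summed over the distal regions of the hepatocyte markers had a log2 ratio of -0.51, and those of the endothelial markers 0.32, with a median of 1.12 over their 31 regions. The Kupffer cell markers were at -0.76 with a median of -8.1e-05 over 12 regions, the hepatocyte markers had a median of -0.55, and the cholangiocyte markers were at -0.096 with a median of -0.072. The lymphocyte markers were at 0.51 and the stellate cell markers at 0.78, over 2 regions each. In bulk tissue, a change in the share of a cell type and a change of accessibility within it cannot be told apart, and the part of cell composition in the results was not tested.

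The number of distal regions per gene fell steeply, with no gap at 12. There were 9625 genes with 1 distal region, 71 with 11, 55 with 12, 56 with 14 to 19 and 10 with at least 20. The highest number was 28. Genes with exactly 11 regions had a median log2 ratio of -0.25 and a median within-gene SD of 0.83, and those with exactly 12 had -0.39 and 0.78.

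**Figure D1:**
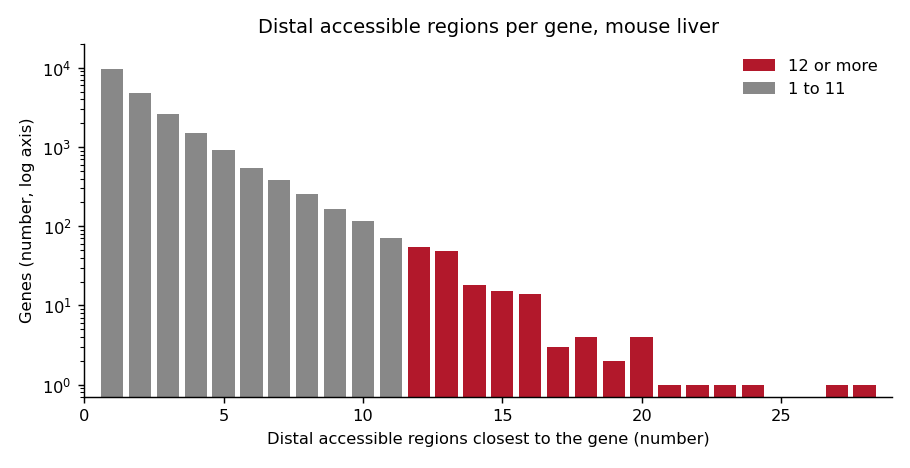
Number of genes (log axis) by the number of distal accessible regions closest to their TSS. Red bars are the 170 genes with at least 12. Counts decline from 9625 genes with 1 region to 1 gene with 28, with no gap at 12.

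Part of the rule is room. A gene far from its neighbours is closest to a longer stretch of genome, and the members had a median of 117 kb of it, against 83.3 kb for genes with 5 to 11 distal regions and 54.6 kb for genes with 2 to 4. Room alone did not make a member: of 5827 genes with at least 100 kb, 116 (1.99%) were members. Their density had a median of 11.97 regions per 100 kb, against 8.05 and 4.70, but the rule fixes much of this: with the stretch capped at 100 kb a side, the lowest density of a member was 6.06. *Tsku*, which encodes a secreted proteoglycan made by the liver, was the densest of the members with a symbol in the table, with 12 regions at 23.5 per 100 kb. *Tsc22d3* (glucocorticoid-induced leucine zipper) followed at 21.1, *Lrp5* (a Wnt co-receptor) at 20.2, *Cat* (catalase) at 19.8 and *Mtus1* at 18.98. Member regions were also stronger, with a median of 2.08 RPM (reads scaled to the library total) in flox/flox and 1.67 in HKO, against 1.63 and 1.41 for genes with 5 to 11. The rule counts called regions, and calling depends on strength, so that this is a description only.

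The sequences shown first are the promoters of 6 members on which the later results turn, since in each of them an accessible region also overlapped the promoter, in part for *Cobl*, *Hlf* and *Lpin2*: *Rxra* (the most regions of these 6) and, among members with a symbol, *Cobl* (the highest median ratio), *Hlf* (among the lowest), *Ets2* and *Cat* (the most uniform) and *Lpin2* (the widest spread). They are the 300 bases from 250 before to 50 after the RefSeq TSS on GRCm38.p6, in the 5′ to 3′ direction of the gene, at chr2:27676951-27677250 (plus strand) for *Rxra*, chr11:12464911-12465210 (minus strand) for *Cobl*, chr11:90390868-90391167 (minus strand) for *Hlf*, chr16:95702157-95702456 (plus strand) for *Ets2*, chr17:71183728-71184027 (plus strand) for *Lpin2* and chr2:103485104-103485403 (minus strand) for *Cat*. Capitals mark matches on either strand to 5 motifs searched: the GC box GGGCGG, the box of the NF-Y factor with the letters CCAAT, the TATA box searched as TATAAA, the E-box in the form CACGTG that basic helix-loop-helix factors bind, and the cyclic AMP response element, TGACGTCA. None of the 5 contains another.
Rxra: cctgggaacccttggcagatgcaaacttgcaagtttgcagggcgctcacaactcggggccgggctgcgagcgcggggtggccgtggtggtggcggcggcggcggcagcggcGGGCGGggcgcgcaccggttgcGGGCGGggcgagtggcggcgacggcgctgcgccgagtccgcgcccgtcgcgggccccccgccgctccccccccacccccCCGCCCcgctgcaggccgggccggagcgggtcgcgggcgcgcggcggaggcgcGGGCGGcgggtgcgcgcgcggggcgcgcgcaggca
Cobl: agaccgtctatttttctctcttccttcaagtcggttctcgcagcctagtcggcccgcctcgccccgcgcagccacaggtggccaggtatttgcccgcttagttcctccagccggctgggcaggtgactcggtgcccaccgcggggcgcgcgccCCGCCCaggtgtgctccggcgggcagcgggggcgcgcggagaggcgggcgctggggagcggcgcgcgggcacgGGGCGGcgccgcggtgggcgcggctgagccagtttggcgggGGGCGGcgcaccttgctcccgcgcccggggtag
Hlf: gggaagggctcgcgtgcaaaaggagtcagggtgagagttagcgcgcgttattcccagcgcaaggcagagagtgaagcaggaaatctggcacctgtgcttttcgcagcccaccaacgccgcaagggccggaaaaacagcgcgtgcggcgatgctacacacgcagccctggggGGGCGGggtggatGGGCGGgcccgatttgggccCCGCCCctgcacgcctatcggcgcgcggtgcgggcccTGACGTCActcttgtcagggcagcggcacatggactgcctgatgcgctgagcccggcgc
Ets2: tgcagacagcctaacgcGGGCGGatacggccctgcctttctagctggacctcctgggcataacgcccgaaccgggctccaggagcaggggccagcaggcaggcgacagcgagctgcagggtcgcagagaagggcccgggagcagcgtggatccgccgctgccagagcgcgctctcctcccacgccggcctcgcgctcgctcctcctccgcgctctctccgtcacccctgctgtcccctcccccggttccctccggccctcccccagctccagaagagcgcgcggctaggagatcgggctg
Lpin2: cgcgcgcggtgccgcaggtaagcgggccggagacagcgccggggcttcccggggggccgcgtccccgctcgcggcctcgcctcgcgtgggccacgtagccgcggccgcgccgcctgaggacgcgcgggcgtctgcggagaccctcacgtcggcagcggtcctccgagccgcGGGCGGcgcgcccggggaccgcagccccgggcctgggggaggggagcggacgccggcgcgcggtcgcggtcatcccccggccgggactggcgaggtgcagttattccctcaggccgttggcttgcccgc
Cat: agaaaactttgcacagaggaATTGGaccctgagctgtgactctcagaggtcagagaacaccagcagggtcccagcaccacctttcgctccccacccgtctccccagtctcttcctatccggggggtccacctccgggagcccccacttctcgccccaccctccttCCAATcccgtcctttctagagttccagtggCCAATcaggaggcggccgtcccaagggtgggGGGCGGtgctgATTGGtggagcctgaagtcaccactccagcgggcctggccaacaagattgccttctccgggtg

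RefSeq promoters were found for 73 of the 107 members with a symbol. GGGCGG occurred in 60.3% of these 73, in 56.0% of the promoters of 7175 other genes with a distal region that were matched in the same way, and in 35.7% of all 32851 promoters in the table. CCAAT occurred in 21.9%, 37.1% and 37.4%. TATAAA occurred in 15.1%, 10.3% and 13.6%, CACGTG in 10.96%, 8.77% and 7.15%, and TGACGTCA in 1.37%, 2.54% and 1.79%, so that *Hlf* was the 1 member with it. The median number of CG dinucleotides per promoter was 21 in members, 17 in the other genes and 7 in all promoters. Of the promoters shown, *Cat* had 4 CCAAT matches and the fewest CG dinucleotides, 11, and *Rxra* had 4 GGGCGG matches and 55 CG dinucleotides, beside 54 in *Lpin2*. On the library totals, the region overlapping each of these promoters had a log2 ratio below 0. The ratios were -0.93 for *Rxra* (562 and 323 reads in flox/flox and HKO), -1.50 for *Cobl* (499 and 193), -1.06 for *Hlf* (330 and 174), -0.16 for *Ets2* (1112 and 1090), -0.59 for *Cat* (1100 and 801) and -0.92 for *Lpin2* (988 and 574). That of *Ets2* has no direction that holds under both scalings.

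Liver regulators and signalling genes were among the members. Of 49 hepatocyte and liver-enriched transcription factors with a distal region, 4 (8.16%) were members, against 107 of 9770 genes with a symbol (1.095%). They were *Zbtb16* (17 regions, median log2 ratio -0.51), *Foxo3* (13, -0.71), *Hlf* (13, -1.20) and *Lpin2* (13, -0.20). *Foxo3* is a target of insulin signalling, *Hlf* a PAR bZIP factor under circadian control, and *Lpin2* is first of all a phosphatidate phosphatase. Of 36 nuclear receptors, *Rxra* (23 regions, -0.74), the shared heterodimer partner of many of them, and *Nr5a2* (15, -0.63), which acts in bile acid and cholesterol metabolism, were members. *Hlf* was also the only member among 20 clock genes. Of 82 secreted plasma proteins, *Apoa1* (13, -0.48), the main protein of high-density lipoprotein, and *Gc* (12, -0.21), the vitamin D binding protein, were members. *Apoa1* was also the 1 member among the hepatocyte markers.

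Several signalling genes were members too. Among 64 genes of glucose, insulin and growth factor signalling, 6 were members (9.38%): *Trib1*, *Tsc22d3*, *Grb14*, *Sik1*, *Foxo3* and *Met*, with a median of -0.56 over the 6. Among 67 stress, immediate early and MAPK feedback genes, 8 were members (11.9%): *Trib1*, *Zfp36l2*, *Map3k5*, *Gadd45g*, *Sik1*, *Irf2bp2*, *Dusp4* and *Dusp10*. Their medians were above 0 in 4 and below 0 in 4, with a median of -0.068 over the 8, and with the overall median subtracted above 0 in 7 and below in 1. Among 68 genes of the actin cytoskeleton and adhesion, 8 were members (11.8%), of which *Cobl* and *Dock9* had medians above 0 and *Dlc1*, *Ablim1*, *Cobll1*, *Stard13* and *Arhgef3* were among those below. The split was 2 above and 6 below, and with the overall median subtracted 5 and 3. Lipid and sterol metabolism held 3 of 72 (*Abca1*, *Lpin2* and *Osbpl3*), with a median of -0.20 and all 3 above 0 after the subtraction, and TGF-beta, Wnt and Hippo signalling 2 of 59 (*Vgll4* and *Lrp5*), with a median of -0.50. Solute carriers and ABC transporters held 2 of 256, *Slc38a4* and *Abca1*, and the zinc finger genes 2 of 156, *Zbtb16* and *Zfp36l2*. Cytochrome P450 genes (0 of 71), ribosomal protein genes (0 of 36) and olfactory and vomeronasal receptor genes (0 of 118) held none, nor did markers of endothelial cells (0 of 10), Kupffer cells (0 of 7), cholangiocytes (0 of 7), lymphocytes (0 of 2) or stellate cells (0 of 1). Over all genes with a symbol the share of members was 1.095%, at which few or none fall in lists of these sizes. These counts of 0 are therefore not read as an absence. The median of all 107 members with a symbol was -0.36. By the gene ontology terms in the deposited table, 10.5% of 105 annotated members had kinase activity, against 4.01% of 9586 annotated genes, 8.57% against 4.46% had transcription factor activity, 32.4% against 20.8% were at the plasma membrane, and 6.67% against 8.69% were mitochondrial. These shares are descriptions, since the number of called regions chose the genes.

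All 6 members of the transcription factor and nuclear receptor lists had medians below 0, as had 80 of the 107 members with a symbol. With the overall median subtracted, *Lpin2* turned to 0.18 and *Zbtb16* stood at -0.13, and the other 4 were between -0.82 and -0.26. In *Foxo3*, all 13 regions were below 0. Its strongest, 1.19 kb upstream, had 1578 reads in flox/flox and 1222 in HKO (-0.50, -0.61 to -0.40), and its lowest, 56.3 kb downstream, had 50 and 8. In *Nr5a2*, 13 of 15 regions were below 0, the strongest of them 6.35 kb upstream with 987 and 420 reads (-1.37, -1.54 to -1.20). The region 5.08 kb downstream went the other way, with 81 and 168 (0.91, 0.53 to 1.32). In *Zbtb16*, a zinc finger repressor of the BTB family, a pair of neighbours 89.3 and 90.7 kb downstream had 300 and 900 reads in flox/flox and 118 and 595 in HKO, and the region at 18.4 kb had 34 and 118. *Abca1*, the cholesterol exporter that lipidates apolipoprotein A-I, was even by comparison: its 15 regions had an SD of 0.40, none reached 2-fold, and the strongest had 732 and 659 reads.

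Among the insulin and stress genes, *Grb14*, an adaptor that inhibits the insulin receptor, was low throughout its upstream stretch. Of its 15 regions 13 were below 0, the strongest with 1225 and 752 reads and the lowest, 80.1 kb upstream, with 596 and 236. *Met*, the receptor of hepatocyte growth factor, had a median of -0.40 and a promoter at -1.21, with 1562 and 739 reads. *Sik1*, a salt-inducible kinase, likewise had a promoter at -1.03 (1193 and 642 reads) and a distal median of -0.35. The phosphatase genes *Dusp4* and *Dusp10*, which switch off MAP kinases, had medians of 0.36 and 0.16. Summed over its regions *Dusp4* had 1138 and 1190 reads, a log2 ratio of -0.07. The region 1.99 kb upstream of *Dusp4* was its strongest and lowest, with 388 and 143 reads, while a weak pair 38.8 and 39.5 kb downstream had 27 and 8 reads in flox/flox and 124 and 63 in HKO. In *Gadd45g*, a growth arrest gene, the strongest region was also the lowest, with 498 and 239 reads, and 7 of 13 were above 0, with a median of 0.048 and a log2 ratio of -0.41 for the summed counts.

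The actin genes described had regions that pointed both ways, as nearly every member had. In *Dlc1*, a GTPase-activating protein, 12 of 18 regions were below 0 with none 2-fold lower, and 3 were at least 2-fold higher, the highest with 17 and 88 reads. In *Ablim1*, an actin-binding protein, 7 of 16 regions were above 0, the highest with 20 and 63 reads, and the strongest had 687 and 407. *Dock9* had 11 of 13 regions above 0, but its strongest, with 196 and 111 reads, was below.

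The label of a gene and the place of its regions often parted. Of the member regions, 32.0% touched the body of the gene they were assigned to, 40.8% touched no gene and 27.1% touched only another gene. The same shares of all distal regions were 24.98%, 48.4% and 26.6%. Regions in another gene only were therefore not particular to the members, whose regions touched their own gene more often than distal regions in general. In 56 of the 170 members, more regions touched 1 other gene than the member itself. The gene with the most regions, *Gm10309* (chr17:86497732-86505232, GRCm38), showed this fully: all of its 28 regions touched *Prkce*, which encodes protein kinase C epsilon, and 2 touched *Gm10309*. All 15 regions of *Angpt2* touched *Mcph1*, within whose introns *Angpt2* lies, 11 of 19 regions of *Lmod3* touched *Frmd4b*, and 11 of 13 regions of *Apoa1* touched *Sik3*, with 1 in *Apoa1* itself. Of the 63 members without a symbol, 37 (58.7%) had their TSS inside a RefSeq protein-coding gene, so that domains named after minor transcripts lay in genes such as *Vps13d* (15 of 21 regions), *Foxp1* (20 of 20), *Arid1b* (20 of 20), *Nfib* (16 of 16), *Rora* (15 of 15), *Elovl6* (12 of 12), *Zfhx3* (12 of 12) and *Prox1* (7 of 12). These unnamed members were singled out after their values were seen. *Foxp1* and *Arid1b* contrast in these groups: the regions of the transcript in *Foxp1*, a forkhead factor, had a median of -0.014 with 1834 and 1945 summed reads, and those of the transcript in *Arid1b*, a subunit of the BAF remodelling complex, -0.49 with 3293 and 2443. *Arid1b* was also a member itself, with 12 other regions and a median of -0.52. The 15 in *Rora*, a nuclear receptor of the clock, were all below 0, from -1.82 to -0.40, with an SD of 0.39. The second gene by number, *AC149090.1* with 27 regions, lies on the unplaced scaffold JH584304.1, where near-identical copies elsewhere can share its reads, and its values are uncertain.

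Among the members without a symbol, 14 had the same start and end as a RefSeq gene, and 2 of those were microRNA genes. *Mir122*, the source of the most abundant microRNA of hepatocytes, had 13 regions, with a median of -0.74 and a range of -1.56 to 0.19. Its highest region lay 1.51 kb downstream and had 283 reads in flox/flox and 356 in HKO, while the region 4.66 kb upstream had 230 and 85. *Mir365-2* on chromosome 11 had 16 regions, with a median of -0.80 and 7 at least 2-fold lower, or 5 with the overall median subtracted. The group of 4 regions 62.1 to 67.1 kb downstream was low throughout, with 301, 153, 104 and 99 reads in flox/flox and 104, 63, 31 and 34 in HKO. The 2 mature products of this gene are shown because the domain surrounds a gene that is itself only a short RNA. They lie at chr11:79726428-79726450 and chr11:79726467-79726488 on the plus strand (RefSeq, GRCm38.p6), and capitals mark the seed, bases 2 to 8.
mmu-miR-365-2-5p: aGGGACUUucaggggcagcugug
mmu-miR-365-3p: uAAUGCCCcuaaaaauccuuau

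Across all member regions the ratio leaned lower in HKO, as it did in the whole table. The median was -0.40 (interquartile range -0.88 to 0.27), against -0.32 for the regions of genes with 5 to 11, -0.27 for 2 to 4, -0.21 for genes with 1, and -0.28 over all distal regions. Of the 2384 regions, 250 (10.5%) were at least 2-fold higher in HKO, against 15.4% of all distal regions, and 445 (18.7%) were at least 2-fold lower, against 18.8%. With the overall median subtracted, the counts became 395 higher (16.6%, against 23.1% of all distal regions) and 182 lower (7.63%, against 8.57%), so that which direction was in the majority depended on the scaling. In both scalings the members held a smaller share of higher regions than the background and a similar share of lower ones. Intervals lay wholly below 0 for 1210 regions (50.8%), wholly above 0 for 470 (19.7%), and included 0 for 704. Over all distal regions the shares below and above 0 were 43.0% and 24.2%.

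Signal strength moved with these values. Member regions in the weakest decile of mean RPM had a median of 0.65 and those in the strongest decile -0.66, and all distal regions in the same deciles had 0.86 and -0.67. In deciles 5 to 9 the medians of the members were -0.073, -0.23, -0.42, -0.48 and -0.58, beside -0.11, -0.23, -0.36, -0.48 and -0.61 over all distal regions. In the weaker deciles 2, 3 and 4 the members had 0.38, 0.004 and 0.015, beside 0.27, 0.047 and -0.007. The members held more of the strong regions, 349 in decile 10 against 70 in decile 1. The 447 member regions with a peak only in HKO had a median of 0.94 and median counts of 29 and 62, the 438 with a peak only in flox/flox had -0.95 (67.5 and 39), and the 1499 with a peak in both had -0.48. Calls and ratios use the same reads, so these medians are a description. Against the library of their call, 40 of the regions called only in HKO were below 0 and 20 of those called only in flox/flox above 0. The share of reads in regions was also lower in HKO, and its part in these values was not tested.

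Per gene, medians ranged from -1.26 to 1.23. They were below 0 in 128 of 170 members and above 0 in 42, and after that subtraction in 90 and 80. Only 1 member had a median at least 2-fold higher, where 9.34% of the 11588 genes with at least 2 distal regions had, and 10 had a median at least 2-fold lower, where 12.9% had. With the overall median subtracted, 7 of the 170 members were 2-fold higher, where 17.2% of the 11588 genes were, and 0 were 2-fold lower, where 4.48% were, so that these counts reverse with the scaling. Medians over 12 or more regions vary less than those over 2, which bears on this comparison. The member with the high median before subtraction was *ENSMUSG00000097282*, a transcript inside *Dlgap1*: 7 of its 12 regions were at least 2-fold higher, among them 1 of 113 reads in flox/flox and 511 in HKO and another of 14 and 128.

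**Figure D2:**
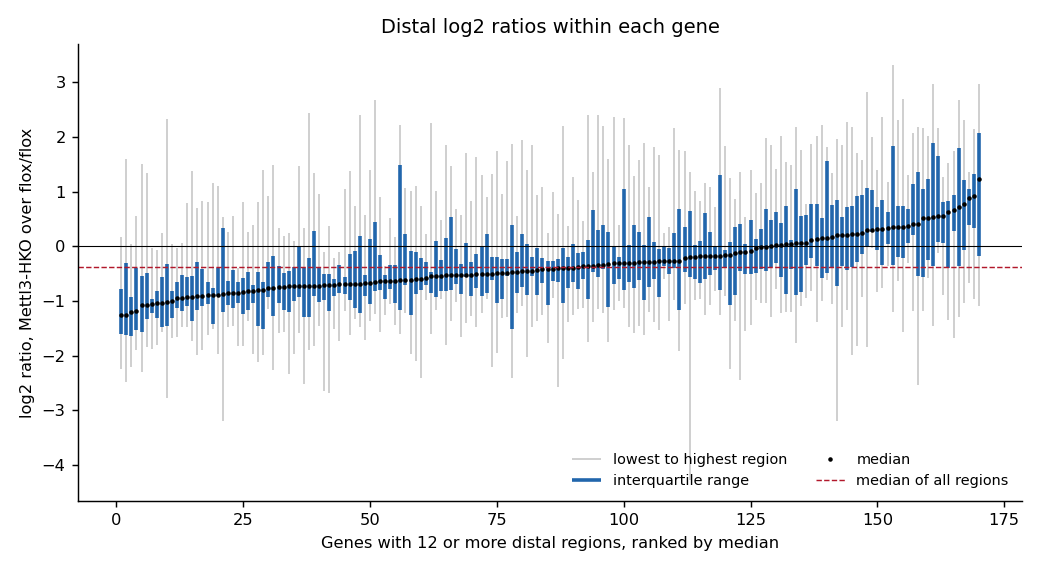
The 170 genes ranked by the median log2 ratio (HKO over flox/flox) of their distal regions. Black points are medians, blue bars interquartile ranges and grey lines the lowest to the highest region; the dashed line is the median of all regions, -0.38. Grey lines cross 0 in nearly every gene: 8 genes had every region below 0 and none had every region above it.

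The lowest medians of members with a symbol were those of *Fgf1*, *Tsc22d3*, *Hlf*, *Adgrf1* and *Minpp1*. *Fgf1* (12 regions), a fibroblast growth factor with effects on glucose metabolism, had a median of -1.26 and 8 regions at least 2-fold lower, or 5 with the overall median subtracted. Its strongest region, in intron 1, had 916 reads in flox/flox and 298 in HKO (log2 ratio -1.75, -1.95 to -1.57), and its highest had 20 and 25. *Tsc22d3* (17 regions) had -1.26 with 10 regions at least 2-fold lower (8 with the subtraction), but 2 regions were above 0, the higher of them a weak region 15.2 kb upstream with 8 reads in flox/flox and 29 in HKO. *Hlf* (13 regions) had -1.20 with 9 at least 2-fold lower (6 with the subtraction). *Adgrf1*, an adhesion G protein-coupled receptor, had -1.17, and *Minpp1*, an inositol polyphosphate phosphatase, -1.06. Of these 5 genes, *Minpp1* alone had every region below 0. In *Fgf1*, *Tsc22d3*, *Hlf*, *Adgrf1* and *Minpp1*, 1 of 12, 5 of 17, 6 of 13, 2 of 12 and 5 of 14 regions had a peak only in flox/flox. Those with a peak only in HKO numbered 1, 3, 1, 1 and 0, and calls and ratios use the same reads.

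*Hlf* shows how a low domain was built. Its strongest region, in intron 2 at chr11:90355173-90355865, had 757 reads in flox/flox and 276 in HKO. Regions 1.08, 2.79, 8.46 and 32.7 kb downstream of the TSS had 179, 287, 456 and 257 reads in flox/flox and 49, 100, 108 and 66 in HKO, log2 ratios of -1.98, -1.65, -2.20 and -2.08. Between them, the region 21.1 kb downstream was much less lowered, with 150 and 123 reads (-0.42, -0.78 to -0.07), and the region 45.0 kb downstream had 29 and 33 (0.04, -0.71 to 0.82). The intervals of the first group and of the region at 21.1 kb did not overlap, so that this difference within the gene exceeded counting error. The promoter, at -1.06, was less lowered than the 4 strongest decreases.

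The highest medians of members with a symbol were those of *Cobl* (0.78), an actin nucleator, *Synj2* (0.72), a phosphoinositide phosphatase, *Dock9* (0.67), an activator of Cdc42, *Mbnl2* (0.56), a splicing regulator, and *Selenop* (0.55), the selenium carrier of plasma. None reached 2-fold on the library totals, and with the overall median subtracted *Cobl* (1.16), *Synj2* (1.09) and *Dock9* (1.05) did. In *Cobl*, *Synj2*, *Dock9*, *Mbnl2* and *Selenop*, 6 of 14, 6 of 14, 6 of 13, 5 of 13 and 5 of 13 regions had a peak only in HKO. Those with a peak only in flox/flox numbered 1, 1, 1, 1 and 0. Regions called only in HKO were counted through that library alone. Calls and ratios use the same reads, so these medians rest in part on the calls. For *Synj2* the direction depended on the measure. Its summed counts were 1974 in flox/flox and 1847 in HKO, a log2 ratio of -0.23. The median of its regions with at least 100 summed reads was 0.23. Summed counts gave smaller increases than the medians for *Cobl* (0.51), *Dock9* (0.35) and *Mbnl2* (0.22), and a larger one for *Selenop* (0.68). Summed over their distal regions, these 5 genes had 861 to 2507 reads per gene in flox/flox. The 5 lowest genes had 1607 to 4627, and the ranges overlapped. In *Cobl*, 6 of 14 regions were higher by 2-fold or more and 2 lower by as much, and with the subtraction 9 and 0. The highest, in intron 1 at chr11:12438492-12438726, had 6 and 37 reads, the strongest had 192 and 257, and the lowest, 5.03 kb downstream, had 218 and 116. Its promoter went against its distal median, from 499 reads to 193. In *Selenop*, 3 neighbouring regions 9.81, 11.03 and 12.3 kb downstream were raised together, from 51, 439 and 71 reads in flox/flox to 247, 1521 and 250 in HKO, and the promoter had 608 and 666. Upstream, 3 weak regions were also at least 2-fold higher, the highest with 10 and 53 reads 49.4 kb upstream, and the strongest, at 23.5 kb, had 641 and 645. None of the 13 regions touched *Selenop* itself, and 3 touched *Ccdc152*.

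The ratio varied within genes by more than counting error. The median within-gene SD was 0.78 on the log2 scale (interquartile range 0.60 to 0.92), where counting error alone gives 0.24. The SD exceeded its counting SD in all 170 members and was more than 2 times as large in 161, with ratios of 1.30 to 6.38. Genes with 5 to 11 regions had a median SD of 0.76 beside a counting SD of 0.27. Counting error is only the least spread that 2 libraries can show. With 1 library per genotype, variation between libraries beyond it is not known, and its part in these SDs was not tested. Of the member regions, 62.9% had a peak in both libraries. With only such regions kept, 18 genes still had at least 12, and their median SD was 0.59.

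**Figure D3:**
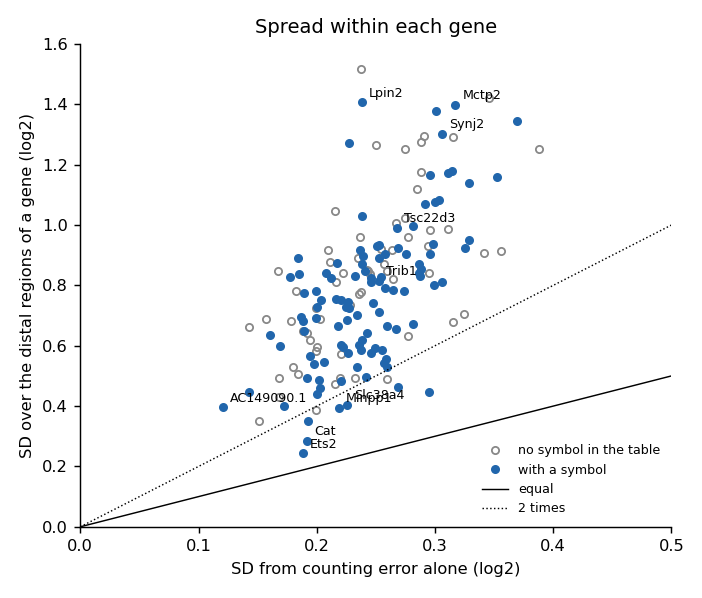
SD of the log2 ratio over the distal regions of each of the 170 genes against the SD that counting error alone would give. The solid line marks equality and the dotted line 2 times; every gene lies above the solid line, and 161 lie above the dotted one.

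Genes nevertheless differed from each other. Of the variance over member regions, 24.99% lay between genes, where grouping without any likeness gives 7.09% on average. The intraclass correlation, which is 0 when regions of a gene are no more alike than regions of different genes and 1 when they are identical, was 0.194. It was 0.266 for genes with 5 to 11 regions and 0.317 for genes with 2 to 4. Without *AC149090.1* it was 0.190, and on ratios taken relative to regions of the same decile of signal 0.188.

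The most uniform members with a symbol were *Ets2*, *Cat*, *Bcar1*, *Minpp1* and *AC149090.1*. *Ets2*, a transcription factor of the ETS family, had the smallest SD, 0.24 beside a counting SD of 0.19. Its 12 regions ran from -0.60 to 0.25 and none reached 2-fold. The strongest, 19.3 kb upstream at chr16:95682262-95683233, had 1576 reads in flox/flox and 1313 in HKO, and the next, 27.1 kb downstream, had 731 and 850. *Cat*, which encodes the peroxisomal enzyme that breaks down hydrogen peroxide, had an SD of 0.28, and all of its 13 regions were below 0, from -1.26 to -0.36. *Bcar1* (0.35), an adaptor of integrin signalling, *Minpp1* (0.39) and *AC149090.1* (0.40) followed. Relative to regions of the same decile of signal, the SDs were 0.31 for *Ets2*, 0.48 for *Cat*, 0.33 for *Bcar1*, 0.51 for *Minpp1* and 0.36 for *AC149090.1*. Among members without a symbol, the 12 regions in *Zmiz1* had an SD of 0.35. *Slc38a4*, an amino acid transporter of hepatocytes, stood close to them at 0.40 with 19 of its 20 regions below 0, a median of -0.996 and 10 at least 2-fold lower. With the overall median subtracted, its median was -0.62 and 3 were 2-fold lower. Relative to the same decile of signal, the SD of *Slc38a4* was 0.54. The strongest region of the gene, in intron 1 at chr15:97028607-97029716, had 997 and 684 reads, the region 5.83 kb downstream had 742 and 261, and the 1 region above 0 had 68 and 77.

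The widest spreads of all were those of 2 members without a symbol, with SDs of 1.52 for the 13 regions of *ENSMUSG00000098674*, a transcript inside *Itpr1*, and 1.42 for the 14 of *ENSMUSG00000108185*, inside *Frmd4b*. *Itpr1* was a member itself, with 13 other regions and an SD of 0.59. Of the members with a symbol, *Lpin2*, *Mctp2*, *Angpt2*, *Mbd2* and *Synj2* followed. In *Lpin2*, the SD of 1.41 rested on 1 region, at chr17:71167678-71167907 and 16.2 kb upstream, which had 263 reads in flox/flox and 14 in HKO (log2 ratio -4.27, -5.26 to -3.59). Without it the SD was 0.74. The neighbouring distal region, 18.8 kb upstream, had 216 reads in both libraries. *Mbd2* (1.346), a reader of methylated DNA, was similar, with 1 region of 49 and 5 reads and an SD of 0.93 without it. In *Mctp2* (1.40), *Angpt2* (1.38), a ligand of the endothelial TEK receptor, and *Synj2* (1.30), the spread remained above 1.2 without the most extreme region, at 1.30, 1.28 and 1.22. *Mctp2* had 5 regions at least 2-fold higher and 5 lower, or 5 and 1 with the overall median subtracted. *Angpt2* ran from 64 reads in flox/flox and 25 in HKO to 6 and 59. Over all members the median SD without the most extreme region was 0.62, and it fell by more than 1.5 times in 15.

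**Figure D4:**
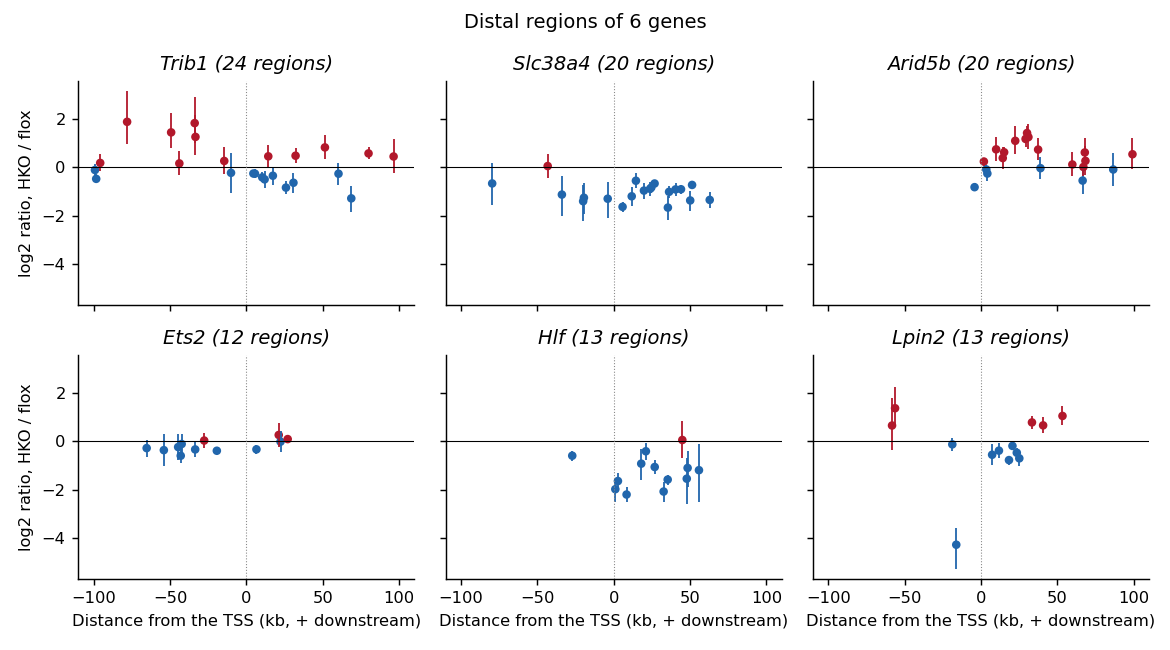
Log2 ratio (HKO over flox/flox) of each distal region against its distance from the TSS in kb for 6 genes, red above 0 and blue below; vertical lines are 95% counting intervals. *Slc38a4* and *Hlf* lie mostly below 0, *Ets2* stays near 0, *Trib1* and *Arid5b* hold regions on both sides of 0, and *Lpin2* has 1 region at -4.27.

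Several large domains held regions on both sides of 0, as nearly every member did. *Trib1*, a pseudokinase whose locus is associated with plasma lipids, had 24 regions, 12 above and 12 below 0, with a median of 0.014. The 4 regions at least 2-fold higher lay 33.3 to 78.1 kb upstream and were weak, with 10 to 23 reads in flox/flox and 43 to 70 in HKO. The strongest, at chr15:59652677-59653241 and 4.61 kb downstream, had 839 and 766. Between 25.9 and 32.2 kb downstream, 3 neighbouring regions had 320, 133 and 157 reads in flox/flox and 195, 93 and 239 in HKO, so that the last differed in direction from the others with intervals on either side of 0. *Arid5b*, a chromatin regulator of metabolism, had 20 regions and a median of 0.31. Its strongest increases were in neighbouring regions 29.2, 30.2 and 31.1 kb downstream, with 105, 145 and 45 reads in flox/flox and 259, 423 and 118 in HKO, while the region 4.2 kb upstream, its strongest, had 769 and 475. In *Zfp36l2*, an mRNA decay factor named here after its values were seen, all 5 upstream regions were above 0, from 0.76 to 2.90, and the strongest of the 11 downstream regions, with 920 and 688 reads, was at -0.55. None of its 16 regions touched *Zfp36l2* itself, and 5 touched *Thada*.

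*Rxra* and *Vegfa* were lower over most of their length. In *Rxra*, 20 of 23 regions were below 0 and 7 at least 2-fold lower, or 3 with the overall median subtracted. Its strongest, 52.2 kb upstream at chr2:27624655-27625335, had 661 and 448 reads, and its lowest log2 ratio, -1.58, occurred in 2 regions 41.9 and 37.2 kb upstream, with 105 and 38 reads in the first and 211 and 77 in the second. The 3 regions above 0 lay beyond 37 kb downstream. In *Vegfa*, the main angiogenic growth factor, 17 of 22 regions were below 0 and 8 at least 2-fold lower, or 0 with the subtraction. The region in intron 1, 1.48 kb downstream, was both the strongest and the lowest, with 1236 and 540 reads (-1.33, -1.48 to -1.18). Of the remaining genes with most regions, *St3gal1* (19 regions, a sialyltransferase) had a median of 0.18 and an SD of 0.79, with summed counts that went the other way (3910 and 3253 reads, -0.40), *Vgll4* (18, a cofactor of TEAD factors) -0.29 and 0.74, *Lmod3* (19) -0.73 and 0.77, and *Gm10309* (28, within *Prkce*) -0.69 and 0.82. The strongest region of the *Gm10309* group had 1209 and 705 reads, its highest 23 and 68 and its lowest 409 and 146.

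The plasma protein genes each held a few regions above 0. *Apoa1* had a region of 2742 reads in flox/flox and 2494 in HKO 2.37 kb downstream (-0.27), the strongest of its 13, and 1 region in *Sik3* intron 14, 26.0 kb upstream, that went from 62 to 203. In *Gc*, 3 regions 30.7, 31.3 and 42.0 kb downstream went from 18, 28 and 22 reads to 69, 97 and 51, and those within 10 kb of the TSS had log2 ratios of -0.67 to -0.08.

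Within genes, strong and weak regions differed in the same way as over the table. When the regions of each gene were divided at their median RPM, the stronger part had the lower median in 132 of 170 members (77.6%), as it had in 69.2% of genes with 5 to 11 regions. The medians over members were -0.51 for the stronger parts and -0.18 for the weaker. *Trib1* (-0.32 and 0.44) and *Synj2* (-0.22 and 1.21) followed this order, and *Slc38a4* (-0.91 and -1.24) and *Cat* (-0.51 and -0.96) did not. The differences by position were smaller. Regions within 10 kb of the TSS had a median of -0.54 (391 regions), those at 10 to 30 kb -0.41, at 30 to 60 kb -0.37 and at 60 to 100 kb -0.33. Regions in the body of the gene had -0.38, those in no gene -0.45 and those only in another gene -0.35.

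Likeness of the ratio followed distance between regions more than the gene they were assigned to. For pairs within 1 member gene, the median absolute difference of the log2 ratio was 0.41 for regions up to 2 kb apart (715 pairs), 0.63 at 5 to 10 kb, 0.70 at 20 to 50 kb (5843 pairs) and 0.89 at 100 to 200 kb, where counting error alone gives 0.20 to 0.26. For pairs of a member region and a region assigned to a different gene, it was 0.58 at 5 to 10 kb (92 pairs), 0.68 at 20 to 50 kb (2451 pairs) and 0.86 at 100 to 200 kb. At 50 to 100 kb both were 0.79. Pairs share regions and are not independent, and these medians are a description.

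**Figure D5:**
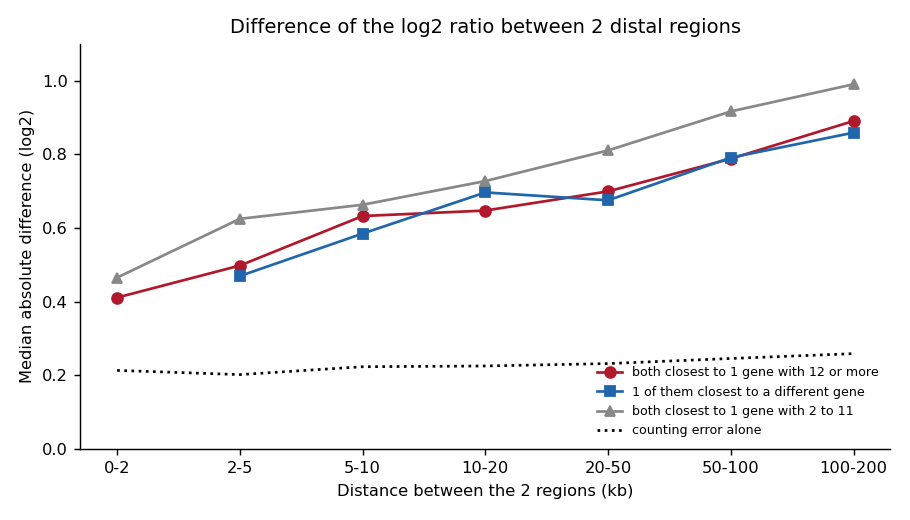
Median absolute difference of the log2 ratio between 2 distal regions by the distance between them in kb. Red circles are pairs closest to the same gene with at least 12 regions, blue squares pairs with 1 region closest to a different gene, grey triangles pairs of genes with 2 to 11 regions, and the dotted line counting error alone. Red and blue run together, from 0.50 and 0.47 at 2 to 5 kb to 0.89 and 0.86 at 100 to 200 kb.

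Promoters were compared with their domains where a region lay within 1 kb of the TSS, in 107 members. The strongest such region had a median log2 ratio of -0.66, against -0.56 over all promoter regions, and lay below the median of the distal regions of its gene in 78 members and above it in 29. The median difference was -0.25, and for genes with 5 to 11 regions -0.26. Across the 107 members, promoter and distal median had a Pearson correlation of 0.32 and a Spearman correlation of 0.31, and over 1137 genes with 5 to 11 regions Spearman's was 0.37. These are correlations across genes of the same pair of libraries, which share depth and scaling, and genes are not replicates. The widest difference in the opposite direction was in *Osbpl3*, an oxysterol-binding protein, with 18 and 102 reads at the promoter (2.30) and a distal median of 0.066, beside -0.46 for the summed distal counts. *Adgrf1* had the promoter and the domain both far down, with 891 and 277 reads at the promoter (-1.82), and *Cobl* had them furthest apart of the 107. In *Dock9* both were higher, with 15 and 37 reads at the promoter (1.11, 0.27 to 2.14).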

How the data were processed

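ATAC-seq libraries from mouse liver, 1 per genotype and each pooled from 4 livers, were used as the merged region table that the authors deposited. By the submitters' processing notes and the study's methods, reads were aligned with BWA to GRCm38 and peaks called with MACS2 in each library. How reads were counted per region, and any shift of read ends for the transposase, is not given in the sources used here. The table holds deposited read counts per region and library and the authors' RPM, the counts scaled to the library total. It also holds the authors' fold enrichment of each peak (a ratio, used only to see in which library a peak was called) and the distance to the closest TSS. A column of log2 fold changes, the authors' own comparison, was not used.

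Of 74821 rows, 5272 repeated a region and were dropped. Library totals were recovered from counts and RPM. The log2 ratio used 1 added read. Counting intervals were exact 95% Clopper-Pearson intervals, since depth, 109 and 96 reads in the median member region in flox/flox and HKO, sets the precision. No test was made, with 1 library per group. Genes named were the 10 with the most regions, the 5 with the highest and lowest medians, the smallest and largest SD and the highest density, among members with a symbol, and members of the transcription factor, nuclear receptor, clock, plasma protein and marker lists. Members of the other lists, and single regions beyond those of *Gm10309*, *AC149090.1*, *Trib1*, *Cobl*, *Fgf1*, *Ets2* and *Lpin2*, were added after their values were seen. The members and lists were chosen with earlier results of these data known. The stretch of a gene ran halfway to the neighbouring listed TSS, at most 100 kb a side. Calculations were checked on simulated data and made in Python 3.11.15 with numpy 2.4.6, pandas 2.3.3 and scipy 1.17.1. Results for some items of the gene lists are not reported here.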

Additional observations from a re-analysis of the deposited data

How the results depend on the processing

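The median log2 ratio of the member regions, the counts at least 2-fold higher and lower, the median within-gene SD and the percent of variance between genes were recomputed under other choices. Centring on the median of all regions gave a median of -0.025, with 395 higher and 182 lower, and scaling to the reads in regions gave 0.11, 461 and 120, so the direction of the regions as a group rests on the scaling. Adding 10 reads gave a median of -0.38 and an SD of 0.68. Keeping regions of at least 100 summed reads gave -0.48, 122 higher, an SD of 0.66 and 30.2% between genes. A distance limit of 50 kb left 45 genes and 598 regions, with -0.48, 47 higher, 114 lower, an SD of 0.68 and 34.7%. A minimum of 10 regions gave 358 genes and 4335 regions, with -0.37, 501, 792 and 27.9%, and a minimum of 15 gave 48 genes and 835 regions, with -0.43, 76, 162 and 19.7%. Regions with a peak in both libraries left 18 genes and 252 regions, with 5 higher, 32 lower, an SD of 0.59 and 28.9%. Ratios relative to the same decile of signal gave an SD of 0.71, and the interquartile range scaled to an SD gave 0.62. Leaving out *AC149090.1*, chosen after seeing the data, moved the median to -0.41. Counting every row, repeats included, gave 192 genes and 2753 regions. When counts were summed over the regions of a gene, the direction differed from that of its median in 16 of the 170 members, 15 of them with a median above 0, *Trib1*, *Synj2* and *St3gal1* included. No paired analysis was possible because each group had 1 library. Depth limits single regions: intervals of 704 of the 2384 included 0, from counting error alone.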
